A study of Homo sapiens with 15 samples.

Results

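The genes of the natriuretic peptide system were followed in H1, a widely used line of human embryonic stem cells, during differentiation towards cardiac cells on laminin. The members were 7 genes of the 48777 listed in the deposited tables, taken by their Ensembl identifiers and GENCODE symbols: NPPA, NPPB, NPPC, NPR1, NPR2, NPR3 and CORIN. All 7 were found. Bulk RNA sequencing covered days 0, 4, 9, 11 and 20 with 3 replicate libraries a day, 15 in all. Every group was unmodified H1 labelled as grown on laminins LN521 and LN221 together, although the deposited sample table lists the first of these laminins alone for the day 0 libraries. Day 0 was the undifferentiated culture in a stem cell medium. By the methods of the study, RPMI with B27 was first given at confluence on day 4, so day 4 lay at the start of differentiation. In that medium the GSK3 inhibitor CHIR99021 and then the Wnt inhibitor IWP2 were given for a time. The labels and the methods of the study place these additions on different days, and the libraries labelled day 9 stand where the methods list another day. Each culture was a mixture of cells from 1 line, and libraries are named here by the plate in their label.

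Natriuretic peptides are hormones made as longer precursors that proteases cut to their active form. NPPA encodes atrial natriuretic peptide and NPPB encodes brain natriuretic peptide, both made by heart muscle cells, whereas NPPC encodes C-type natriuretic peptide, which acts locally in vessels and growing bone. NPR1 and NPR2 are receptors that make cyclic GMP when bound, NPR1 for the peptides of NPPA and NPPB and NPR2 for that of NPPC, while NPR3 removes all of them from the surroundings, and CORIN is the membrane protease of heart muscle cells that cuts the NPPA precursor.

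In GRCh38 the peptide genes NPPA (ENSG00000175206, chr1:11845709-11848345) and NPPB (ENSG00000120937, chr1:11857464-11858945) lie next to each other on the minus strand of chromosome 1. NPPC (ENSG00000163273) lies at chr2:231921809-231926396 on the minus strand. The receptor genes lie on the plus strands, NPR1 (ENSG00000169418) at chr1:153678688-153693992, NPR2 (ENSG00000159899) at chr9:35791003-35809732 and NPR3 (ENSG00000113389) at chr5:32689070-32791724. CORIN (ENSG00000145244) lies at chr4:47593999-47838106 on the minus strand. All are annotated as protein coding. Of the exon bases of NPPA, 25.5% also belong to CLCN6 on the other strand, and of those of NPR2 3.94% are shared in the same way. The strand setting of the authors' counting is not given in the sources used here, so reads of such stretches cannot be assigned to one gene.

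The upstream sequences of NPPA, NPR3 and CORIN are shown because these genes, with NPPB, had the largest spans of level over the days. They come from the RefSeq promoter table (GRCh38.p14), which matched 6 of the 7 members, all but NPPB. Searched on both strands in the 250 bases before each start were GATAA (the core bound by GATA factors), AAGTG (bound by NKX2-5), CATTCC (TEAD factors), GGTGTGA (T-box factors) and the CArG box (serum response factor). The window of NPPA held 2 matches to GATAA and 2 to AAGTG, at bases −141 and −95 and at bases −107 and −85 counted from the start, and none of them overlapped. GATAA occurred in 20.5% of the 34943 upstream windows in the table, AAGTG in 37.6%, both in 9.17%, and at least 2 of each in 0.555%. The NPPA window lies inside a CLCN6 exon, so only a pair of short sites is printed, on the minus strand, with the matches in capitals.
NPPA site at chr1:11847907-11847936: gccctgcgggatGATAActttaaaagggca
NPPA site at chr1:11847861-11847890: CACTTggcagctTTATCactgcAAGTGaca

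Before the first start of NPR3 in that table the window held 1 match to GGTGTGA, found in 2.76% of windows, and 1 to AAGTG, both on the opposite strand and shown in capitals. The 211 bases of the CORIN window that lie outside its exons held none of the motifs searched. CATTCC occurred in 11.9% of windows and the CArG box in 1.16%, and neither was found in the printed sequences. Matches also occurred in windows not printed, including those of members that did not rise. The NPPC window held GATAA and AAGTG, and the NPR2 window held AAGTG. Before the second start of NPR3 lay AAGTG and CATTCC. A match describes the letters of the reference and shows neither a bound site nor a cause.
NPR3 at chr5:32690622-32690871, plus strand: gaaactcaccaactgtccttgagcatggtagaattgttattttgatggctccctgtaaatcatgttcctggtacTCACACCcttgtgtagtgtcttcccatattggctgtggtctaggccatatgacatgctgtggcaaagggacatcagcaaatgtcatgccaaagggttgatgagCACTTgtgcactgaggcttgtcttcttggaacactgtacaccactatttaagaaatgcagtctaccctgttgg
CORIN at chr4:47838107-47838317, minus strand: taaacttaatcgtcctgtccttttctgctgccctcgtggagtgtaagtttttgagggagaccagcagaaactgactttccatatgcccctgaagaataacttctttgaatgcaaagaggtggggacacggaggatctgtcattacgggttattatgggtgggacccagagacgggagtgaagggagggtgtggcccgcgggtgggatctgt

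Libraries held between 11990302 and 33469703 counts, with a median of 22867831. The summed level of 4 pluripotency markers lay between 2136 and 3274 TPM (transcript copies relative to all those of a library, after division by gene length) on days 0 and 4 and between 5.95 and 28.6 TPM on day 20. The 5 cardiomyocyte markers summed to 53.5 to 126 TPM on day 9, to 3345, 12567 and 2064 TPM on day 11 (plates 2, 5 and 6) and to 14060, 11509 and 2640 TPM on day 20 (plate 2, plate 2_3 and plate 6). Cells of other kinds were present as well, since the 5 fibroblast markers summed to 21724 TPM and the 5 yolk sac and hepatic markers to 19790 TPM in day 20 plate 6. The day 20 plate 2_3 library stood apart, with an RNA integrity number of 6.1 against 8.8 to 10 elsewhere. In that library 182 genes that were nearly silent up to day 11 had a median of 10.6 reads per kilobase. The median was 0.663 in day 20 plate 6 and 0 in day 20 plate 2, where 75.3% and 18.1% of these genes had a count. In a bulk library, fewer cells of a type and less RNA per cell cannot be told apart.

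Of the 7 members, 6 differed over the days and 1 did not pass the test. Levels are given as TPM, which is per transcript length and so allows different genes to be set side by side, and changes as log2 fold changes fitted to the counts with their standard error (SE). In edgeR's F-test over the 5 days, adjusted over all genes, NPR3 had an adjusted p of 3.76e-08, CORIN 9.27e-07, NPPB 0.000139, NPPA 0.000147, NPR1 0.00598 and NPR2 0.00963, while NPPC had 0.961. These are 6 members of 7, where 50.4% of the 24767 genes tested were called. All 6 stayed past the threshold of 0.05 under each of the alternatives computed, which included leaving out each library in turn.

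**Figure D1:**
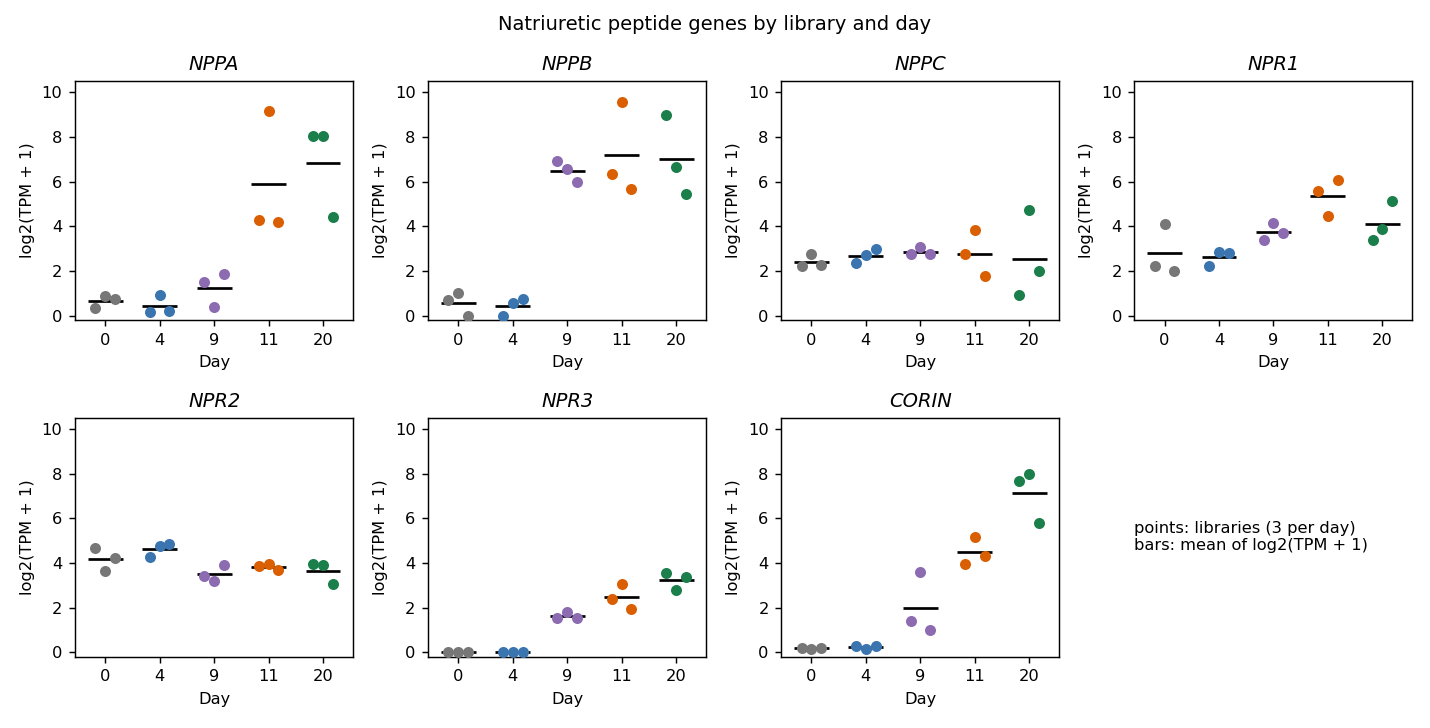
Level of each of the 7 genes in each library, as log2(TPM + 1), against the day (points are the 3 libraries of a day, bars their mean). NPPA is near 0 up to day 9 and splits by library on days 11 and 20, NPPB is already high in all 3 libraries of day 9, and CORIN and NPR3 have means that increase at each step from day 4.

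The steps between successive days were tested with edgeR's quasi-likelihood test, 3 libraries against 3, with Benjamini-Hochberg adjustment over all genes. From day 0 to day 4 no member was called, 4 of 7 being tested, and 0% of the 20964 genes were called higher and 0% lower. An unadjusted p under 0.05 by edgeR was reached by 741 genes in that step, fewer than this threshold would pass if no gene had changed. DESeq2 called 0 as well. With no filter on low counts 64 genes were called, 31 higher and 33 lower, and no member was among them. From day 4 to day 9, 6 of 7 were tested, and 4 members rose and 1 fell, where 24.3% of 21252 genes were called higher and 24.7% lower. From day 9 to day 11 none of 7 was called, where 1.39% of 20679 genes were called higher and 1% lower. From day 11 to day 20 none of 7 was called, where 1.12% of 21398 genes were called higher and 0.435% lower. In the last 2 steps the replicates of a day lay far apart, so the standard errors below are large for several members.

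**Figure D2:**
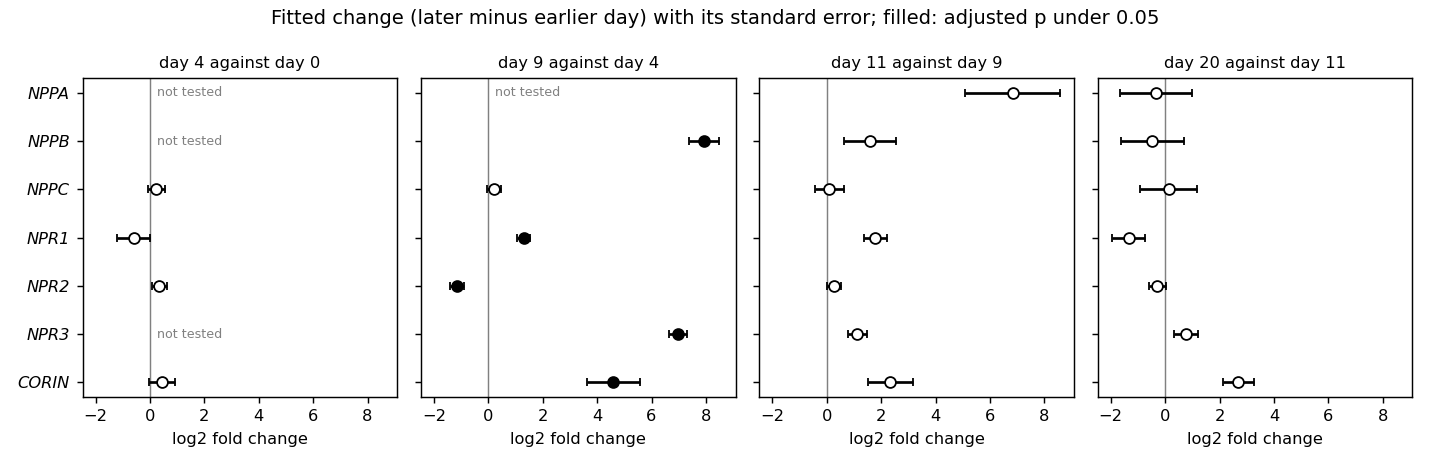
Fitted log2 fold change of each gene in the 4 steps, later minus earlier day, with its standard error (3 libraries against 3, filled points have an adjusted p under 0.05). The 5 filled points all lie in the step from day 4 to day 9, from 7.92 for NPPB to −1.15 for NPR2.

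Of the peptide genes, NPPB was the one that rose by day 9. Its counts on day 0 were 3, 6 and 0, and on day 4 they were 0, 2 and 3, so that 9 and 5 reads in all stood for this gene. On day 9 it had 416 counts (121 TPM) in plate 2, 353 counts (93.1 TPM) in plate 6 and 316 counts (61.6 TPM) in the library with no plate number. The 3 libraries of day 9 lay close together and far above every library of days 0 and 4. The log2 fold change from day 4 to day 9 was 7.92 (SE 0.56, adjusted p = 2.67e-05 by edgeR), and it was called under every alternative, with values from 6.04 to 8.63, of which 7.23 was without day 4 plate 1 and 8.63 without day 4 plate 5. Relative to library totals, the summed reads of day 9 were 264 times those of day 4, with a 95% counting interval of 113 to 815. Within sequencing lanes 1, 2 and 5, each of which held 1 library of both days, the differences in log2 CPM (library-scaled counts) were 7.05, 6.20 and 7.05. As the libraries of the days did not overlap, any pairing would give positive differences, so the lanes add no evidence of direction.

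After day 9 the NPPB libraries of a day no longer lay together. On day 11 the level was 80.3 TPM in plate 2, 744 TPM in plate 5 and 49.7 TPM in plate 6. On day 20 it was 508 TPM in plate 2, 99.6 TPM in plate 2_3 and 42.7 TPM in plate 6. One library of each day was high and the other two lay within or below the range of day 9, so days 9, 11 and 20 overlapped. From day 9 to day 11 the fitted log2 fold change of NPPB was 1.58 (SE 0.95, adjusted p = 0.465 by edgeR), and from day 11 to day 20 it was −0.47 (SE 1.15, adjusted p = 0.884). Both directions rested on day 11 plate 5: without it the first value was −0.55 and the second 1.64, and neither passed the test. Within lanes 1, 2 and 5 the differences from day 9 to day 11 in log2 CPM were 2.46, −0.77 and 0.29.

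NPPA, the other cardiac peptide gene, was at trace level when NPPB was already high. It had 2, 8 and 3 counts on day 0 and 1, 6 and 1 on day 4. On day 9 it had 10 counts (1.81 TPM) in plate 2, 2 counts (0.327 TPM) in plate 6 and 22 counts (2.66 TPM) in the library with no plate number. The libraries of day 9 overlapped those of the earlier days, and NPPA was below the filter on low counts in that step. Relative to library totals it was 5.17 times higher on day 9 than on day 4, with a counting interval of 2.35 to 12.9 from 34 and 8 reads. That interval leaves out the spread between libraries, and 22 of the 34 reads came from the library with no plate number. It passed the threshold in 3 of the 7 alternatives that tested it in this step.

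On day 11 the NPPA level was 18.6 TPM in plate 2, 575 TPM in plate 5 and 17.3 TPM in plate 6. All 3 libraries lay above the highest of day 9, and plate 5 lay far above the others. Its log2 fold change was 6.83 (SE 1.74), the largest among the members in this step, yet its adjusted p was 0.0992 by edgeR. Without day 11 plate 5 it was 3.37 with an adjusted p of 0.0542. It passed with all 15 libraries in 1 fit (6.84, adjusted p = 0.0247), and the adjusted p over the alternatives ranged from 0.00293 to 0.396. Within lanes 1, 2 and 5 the differences in log2 CPM were 7.95, 4.89 and 2.59. Since the libraries of the days did not overlap, any pairing of them would give positive differences, so the lanes add no evidence of direction.

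On day 20 NPPA stood at 262 TPM in plate 2, 260 TPM in plate 2_3 and 20.2 TPM in plate 6. The libraries of days 11 and 20 overlapped, with high and low libraries on both days. From day 11 to day 20 the log2 fold change was −0.34 (SE 1.33, adjusted p = 0.931 by edgeR), and without day 11 plate 5 it was 3.09. In the ordering of day means, days 4, 0 and 9 did not separate, day 20 lay apart from day 9, and days 20 and 11 did not separate.

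The ratio between the 2 cardiac peptide genes was lower in the later libraries than on day 9. On day 9 the level of NPPB was 67.1, 285 and 23.2 times that of NPPA (plate 2, plate 6 and the library without a number). NPPA had only 10, 2 and 22 counts in these libraries, so the size of these ratios is imprecise. On day 11 the ratio was 4.33, 1.29 and 2.88, and on day 20 it was 1.94, 0.382 and 2.11. Every library of day 9 lay above every later one, and day 20 plate 2_3 was the only library of these days with more NPPA than NPPB. For a pair of these days, with 3 libraries against 3, an exact two-sided permutation test cannot go below 0.10. The ratio was not tested in any comparison.

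The 3 libraries in which NPPA was highest were those in which TNNT2, the cardiac troponin T gene and a marker of heart muscle cells, was highest. TNNT2 stood at 332, 956 and 244 TPM on day 11 (plates 2, 5 and 6) and at 838, 1745 and 353 TPM on day 20 (plate 2, plate 2_3 and plate 6). NPPA per TNNT2 was 0.0559, 0.601 and 0.0706 on day 11 and 0.313, 0.149 and 0.0574 on day 20, so NPPA did not stay in a fixed proportion to the marker. Day 9 plate 6 showed the opposite order, with the most TNNT2 of its day (50.5 TPM against 15.4 and 8.37) and the least NPPA. That NPPA level rested on 2 counts, against 10 and 22 in the other libraries of day 9. In day 11 plate 5 NPPB ranked 137th and NPPA 184th among all genes by TPM, and in plates 2 and 6 of that day NPPA ranked 8439th and 8675th. Endothelial and endocardial markers were also highest in day 11 plate 5, where their sum was 115 TPM, against 28.3 TPM in plate 2 and 10.1 TPM in plate 6. At least 1 TPM was reached by 5 of 5 of them in plates 5 and 2 and by 2 of 5 in plate 6. In none of the 3 libraries was a marker of that list at 0. The part of this mixture in the NPPA and NPPB levels was not tested.

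**Figure D3:**
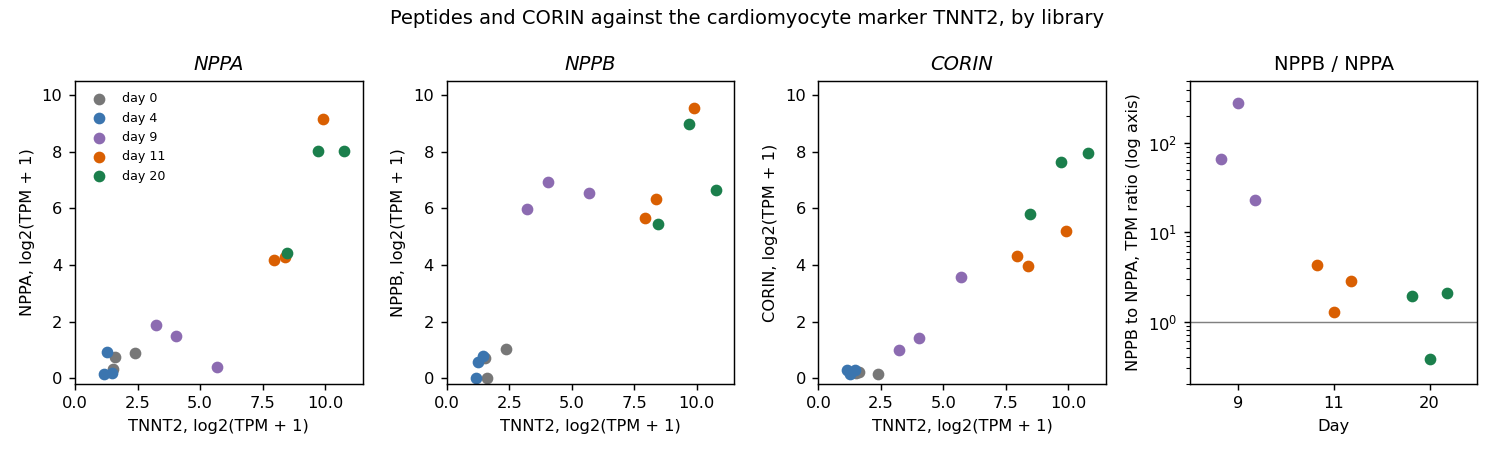
The first 3 panels plot NPPA, NPPB and CORIN against TNNT2, all as log2(TPM + 1), with a point for each of the 15 libraries coloured by day. The fourth panel plots the ratio of NPPB to NPPA in TPM on a log axis for days 9, 11 and 20: all day 9 libraries lie above 20, and day 20 plate 2_3 lies below 1.

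NPPC, the third peptide gene, was measured at a low level throughout and passed no test. Its means were 4.44 ± 1.21 TPM on day 0, 5.54 ± 1.32 TPM on day 4 and 6.30 ± 0.92 TPM on day 9 (SD, n = 3). On day 11 it had 5.73 TPM in plate 2, 13.1 TPM in plate 5 and 2.39 TPM in plate 6, and on day 20 it had 0.902, 25.5 and 2.94 TPM (plate 2, plate 2_3 and plate 6). Each pair of neighbouring days in the order of means overlapped. From day 4 to day 9 the log2 fold change was 0.21 (SE 0.26, adjusted p = 0.546 by edgeR). From day 11 to day 20 it was 0.12 (SE 1.06, adjusted p = 0.970), and without day 20 plate 2_3 it was −1.88. The 107 counts in that library amounted to 99.9 reads per kilobase, above its median of 10.6 for the genes nearly silent up to day 11. Its RNA integrity number was the lowest of the series.

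The receptor genes NPR1 and NPR2 moved in opposite directions from day 4 to day 9. NPR1, the receptor of the NPPA and NPPB peptides, had 3.65, 6.11 and 5.96 TPM on day 4 (plates 1, 2 and 5) and 9.51, 16.9 and 12.0 TPM on day 9. The groups did not overlap. The log2 fold change was 1.30 (SE 0.24, adjusted p = 0.00261 by edgeR). With all 15 libraries in 1 fit it was 1.25 and its adjusted p was 0.171, the 1 alternative of 13 in which NPR1 lost its call. On day 0 its values were 3.69, 16.2 and 3.04 TPM, and the second of these libraries lay above 5 of the 6 libraries of days 4 and 9.

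NPR1 had its highest mean on day 11, with 47.0 TPM in plate 2, 20.8 TPM in plate 5 and 67.0 TPM in plate 6. All 3 were above every library of day 9. The log2 fold change from day 9 was 1.78 (SE 0.42, adjusted p = 0.0833 by edgeR), and it passed the threshold under 4 of 14 alternatives, with an adjusted p of 0.000729 by DESeq2. Without day 11 plate 5 it was 2.13 with an adjusted p of 0.0144. On day 20 the levels were 9.30, 13.8 and 33.6 TPM, and the change from day 11 was −1.34 (SE 0.61, adjusted p = 0.324).

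The order of the day 11 libraries by NPR1 was the reverse of their order by NPPA and by NPPB. Plate 5, with the most of both peptide genes, had the least NPR1, and plate 6 had the most. For NPPA the order of plates 2 and 6 rested on 122 against 121 counts. The 5 fibroblast markers summed to 2789 TPM in plate 2, 986 TPM in plate 5 and 6041 TPM in plate 6, and on day 20 to 2492, 1109 and 21724 TPM. The sum of the 5 yolk sac and hepatic markers had the same order on day 11, with 1377, 578 and 2252 TPM. On day 20 that sum was 17188, 672 and 19790 TPM. Not every marker followed its sum on day 11. TTR, of the yolk sac and hepatic list, had the reverse order, with 303, 414 and 154 TPM. POSTN, of the fibroblast list, was highest in plate 2, with 8.42, 0.564 and 4.38 TPM. On day 20 NPR1 was likewise highest in plate 6, but the rest of the order differed. NPR1 was lowest in plate 2 (9.30 TPM), whereas both marker sums were lowest in plate 2_3, which had 13.8 TPM of NPR1. None of the markers of both lists was at 0 in any library of the 2 days, and their part in the NPR1 level was not tested.

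NPR2, the receptor of the NPPC peptide, fell. It stood at 18.2, 26.3 and 27.6 TPM on day 4 and at 9.64, 8.10 and 13.9 TPM on day 9, with every library of day 9 below every library of day 4. The log2 fold change was −1.15 (SE 0.26, adjusted p = 0.00639 by edgeR), with −1.40 to −0.93 over 13 alternatives, all of which kept the call. The later levels were 13.6, 14.6 and 11.8 TPM on day 11 and 14.6, 14.2 and 7.32 TPM on day 20. In the steps from day 9 to day 11 (0.27, SE 0.25) and from day 11 to day 20 (−0.29, SE 0.32) the adjusted p-values were 0.651 and 0.719.

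The more abundant of these receptors differed between libraries. NPR1 per NPR2 was 0.151, 1.39 and 0.171 on day 0, so the second library of that day held more NPR1. The ratio was 0.200, 0.232 and 0.216 on day 4 and 0.987, 2.09 and 0.866 on day 9. It was 3.46, 1.43 and 5.69 on day 11 and 0.636, 0.966 and 4.59 on day 20. NPR2 was the more abundant in all libraries of day 4, and NPR1 in all libraries of day 11. On day 20, plate 6 held more NPR1 and the other two held more NPR2. The order on days 9 and 20 depends on the gene length used: the deposited TPM imply 3865 bases for NPR2, whose exons in GENCODE v44 cover 8353 bases. With the lengths of GENCODE v44, an alternative chosen after seeing the data, the ratio was 2.15, 4.57 and 1.89 on day 9 and 1.39, 2.11 and 10.0 on day 20. No library of days 0, 4 or 11 changed sides.

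**Figure D4:**
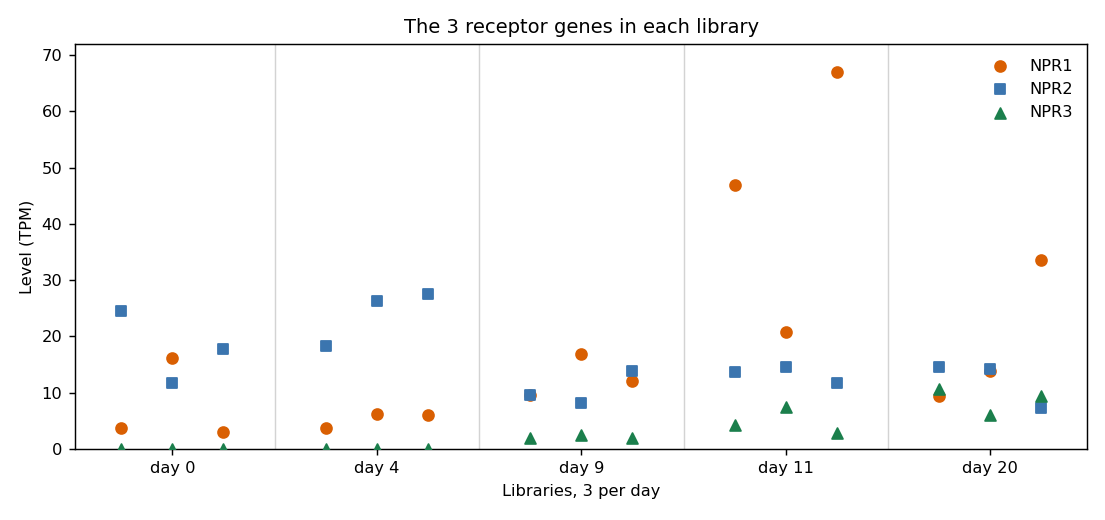
Level in TPM (linear axis from 0) of NPR1, NPR2 and NPR3 in each library, ordered by day, 3 libraries a day. NPR2 lies above NPR1 in the day 4 libraries, NPR1 lies above NPR2 in the day 11 libraries, and NPR3 is near 0 until day 9.

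NPR3, the clearance receptor, was all but undetected before day 9. It had 1, 1 and 0 counts on day 0 and 1 count in each library of day 4. On day 9 it had 93, 136 and 140 counts, or 1.91, 2.52 and 1.92 TPM. The libraries of day 9 lay close together and far above those of day 4, with a log2 fold change of 6.98 (SE 0.34, adjusted p = 3.21e-06 by edgeR). Relative to library totals, day 9 was 150 times day 4, with a counting interval of 50.8 to 729 from 369 and 3 reads. Within lanes 1, 2 and 5 the differences in log2 CPM were 5.33, 5.56 and 5.43, positive under any pairing of these separate groups.

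On day 11 NPR3 stood at 4.27, 7.42 and 2.78 TPM, each above every library of day 9. The log2 fold change was 1.13 (SE 0.35, adjusted p = 0.145 by edgeR), and DESeq2 gave 1.12 with an adjusted p of 0.0310. On day 20 it stood at 10.6, 5.97 and 9.42 TPM, overlapping day 11, with a change of 0.77 (SE 0.45, adjusted p = 0.444). In plate 2_3 it had 23.4 reads per kilobase against that library's median of 10.6 for the genes nearly silent up to day 11. The part of this background in the NPR3 level was not tested. NPR3 did not reach the level of NPR1 except in day 20 plate 2, where the ratio of NPR3 to NPR1 was 1.14. In the libraries of day 11 that ratio was 0.0908, 0.358 and 0.0415.

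The libraries of CORIN, the protease, did not overlap in any of the 3 steps after day 4, of which only the first passed the test. The share of all genes that separate in this way was not computed. CORIN had 9, 9 and 6 counts on day 0 and 18, 6 and 13 on day 4. On day 9 it had 1.65 TPM in plate 2, 11.0 TPM in plate 6 and 0.993 TPM in the library without a plate number, against at most 0.216 TPM on day 4. The rise from day 4 was 4.60 (SE 0.98, adjusted p = 0.00600 by edgeR), and without day 9 plate 6 it was 2.96 with an adjusted p of 0.000377. With no filter on low counts it was 4.57 with an adjusted p of 0.0731. Plate 6, which had the most CORIN of day 9, was also the library with the most TNNT2 and the least NPPA (2 counts) of that day.

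On day 11 CORIN reached 14.4, 35.3 and 18.7 TPM (plates 2, 5 and 6), and on day 20 it reached 200, 250 and 54.9 TPM (plate 2, plate 2_3 and plate 6). Every library lay above every library of the day before, in both steps. The change from day 9 to day 11 was 2.34 (SE 0.84, adjusted p = 0.211 by edgeR), and without day 9 plate 6 it was 4.00 with an adjusted p of 0.0169. The change from day 11 to day 20 was 2.69 (SE 0.56, adjusted p = 0.0604), and it passed under 4 of 14 alternatives, with an adjusted p from 0.000207 to 0.305 over all of them. Within lanes 1, 2 and 5 that change was 0.69, 3.16 and 3.80 in log2 CPM, positive under any pairing of these separate groups. By level, CORIN ranked 741st, 421st and 3346th among all genes on day 20.

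CORIN per TNNT2 was 0.107, 0.217 and 0.119 on day 9, 0.0435, 0.0370 and 0.0765 on day 11 and 0.239, 0.143 and 0.156 on day 20. The ratio was thus lower in every library of day 11 than in any of days 9 and 20, which overlapped. Between days 11 and 20 this was unlike the ratio of NPPA to TNNT2, which overlapped between the days. The ventricular marker MYL2, which encodes a myosin light chain, was at 0, 0 and 0.117 TPM on day 11 and at 63.8, 65.1 and 8.41 TPM on day 20. All 4 ventricular markers rose in that step, where 1.12% of all genes were called higher, and the part of this shift in the CORIN level was not tested.

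The genes with the most similar pattern over the 15 libraries were found by Pearson's r of log2(TPM + 1) among 13402 protein-coding genes, as a description in which all points share libraries and depth. For CORIN these were MTUS2 (r = 0.996), STYXL2 (0.986) and ASAP1 (0.986). For NPR3 they were KIAA0513 (0.987), PGM5 (0.987) and RIN2 (0.979). For NPPA they were ADGRL4 (0.977), CAPN3 (0.974) and FSD2 (0.970), and for NPPB ZKSCAN8 (0.987), DUSP5 (0.977) and GADD45A (0.976). NPR1 was followed by SRSF8, IGDCC3 and RAB31 (0.946 to 0.932), and NPR2 by KIF1B, GRIP2 and SPG7 (0.909 to 0.878). NPPC was followed by VAMP1, MASP2 and ATG10 (0.899 to 0.850), none of which stayed among the 3 without day 20 plate 2_3. Without that library 2 of the 3 genes remained for NPPA, NPPB, NPR2 and NPR3 and 1 for NPR1 and CORIN. With log2(TPM + 0.1) all 3 remained for NPR1, 2 for NPPB, NPPC, NPR2 and NPR3, and 1 for NPPA and CORIN. Among the members, r was 0.93 for NPR3 with CORIN, 0.92 for NPPB with NPR3 and 0.89 for NPPA with CORIN. It was 0.85 for NPPA with NPR3, 0.80 for NPPB with CORIN and 0.78 for NPPA with NPPB. NPR1 had an r of 0.64 with NPR3, 0.61 with NPPB, 0.55 with CORIN, 0.47 with NPPA, 0.03 with NPPC and −0.64 with NPR2.

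The other enzymes that process or degrade the peptides were followed as a list of 6 genes besides CORIN, of which 5 were tested from day 4 to day 9. There 2 rose and 1 fell, where 24.3% of all genes were called higher and 24.7% lower, shares not far from those of the list, and the list median was −0.22 against 0.01 for all genes. FURIN, a protease that cuts the NPPB and NPPC precursors, rose by 2.03 (SE 0.23, adjusted p = 0.000263 by edgeR), from 31.3, 44.2 and 51.9 TPM to 166, 139 and 203 TPM. PCSK6, a related protease that activates CORIN, rose by 0.73 (SE 0.16, adjusted p = 0.00548). MME, or neprilysin, which degrades natriuretic peptides, fell by 0.66 (SE 0.18, adjusted p = 0.0171). In the 2 later steps none of the 5 passed. The separate list of 6 related ligand and receptor-like genes had 2 members tested from day 4 to day 9, GUCY2C and GUCY2D, and none passed in any step.

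Downstream of the receptors, the list of cyclic GMP kinases and their substrates had 7 genes, of which 2 rose and 3 fell from day 4 to day 9 (24.3% and 24.7% of all genes), with a median of 0.19 against 0.01 for all genes. PRKG1, the main cyclic GMP dependent kinase of muscle, fell by 2.34 (SE 0.25, adjusted p = 0.000229 by edgeR), from 33.1, 33.0 and 49.9 TPM to 7.53, 10.2 and 5.10 TPM. PLN, or phospholamban, a regulator of the calcium pump, rose by 3.69 (SE 1.27, adjusted p = 0.0440), with 27.0 TPM in day 9 plate 6 and 1.42 and 1.15 TPM in the other two. RGS2, which dampens G protein signalling, rose by 1.79 (SE 0.23, adjusted p = 0.000471), and VASP, a substrate at the actin skeleton, fell by 0.87 (SE 0.11, adjusted p = 0.000423). None of the 7 passed in the later steps, although PLN stood at 1871, 2063 and 447 TPM on day 20.

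Among the phosphodiesterases that break down cyclic GMP, 3 of 7 tested rose and 1 fell from day 4 to day 9 (24.3% and 24.7% of all genes), with a median of 0.73. PDE10A rose by 3.08 (SE 0.27, adjusted p = 7.37e-05 by edgeR), PDE1C by 2.93 (SE 0.34) and PDE9A by 0.73 (SE 0.13). PDE5A, the cyclic GMP specific enzyme of smooth muscle, fell by 1.28 (SE 0.14, adjusted p = 0.000137). Of 8 tested in each later step, none passed. The nitric oxide sensitive cyclase, the other source of cyclic GMP, had 2 of 3 subunit genes higher on day 9, against the same 24.3% of all genes. GUCY1A1 rose by 9.37 (SE 1.36, adjusted p = 0.00127), with day 9 values of 29.5, 127 and 8.24 TPM, and GUCY1B1 rose by 1.62 (SE 0.29, adjusted p = 0.00217).

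**Figure D5:**
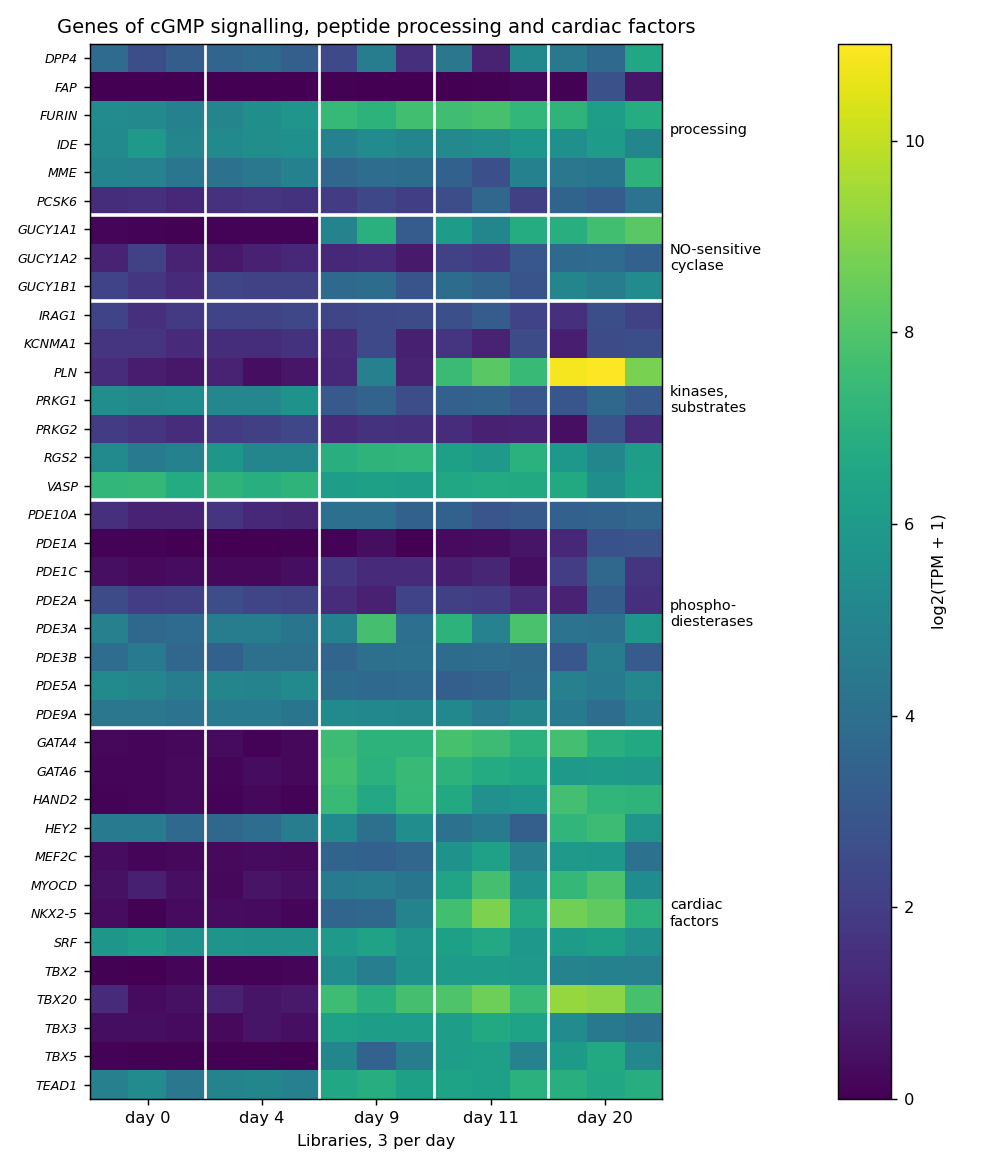
Level as log2(TPM + 1) of the genes in 5 lists (rows) in the 15 libraries (columns, 3 a day). Most cardiac factors, GUCY1A1 and FURIN are brighter from day 9 on, PRKG1 and PDE5A are darker on day 9 than on day 4, and PLN is brightest in the first 2 libraries of day 20.

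Of 13 cardiac factors known to act on NPPA or NPPB, 11 rose from day 4 to day 9 and none fell (24.3% and 24.7% of all genes), with a median of 7.72 against 0.01 for all genes. The largest changes were in HAND2 (10.37, SE 0.45), GATA4 (9.78, SE 0.34), GATA6 (9.70, SE 0.35) and TBX5 (9.20, SE 0.78), transcription factors of heart development. From day 9 to day 11, 2 rose and none fell (1.39% and 1% of all genes): NKX2-5, an early cardiac homeobox factor, by 3.79 (SE 0.65, adjusted p = 0.0346 by edgeR) and MEF2C by 2.17 (SE 0.35, adjusted p = 0.0287). NKX2-5 stood at 204, 459 and 100 TPM in plates 2, 5 and 6 of day 11, highest in the plate with the most NPPA. From day 11 to day 20 HEY2, a ventricular repressor, rose by 2.87 (SE 0.48, adjusted p = 0.0356), and TBX2, a repressor of NPPA in the atrioventricular canal, fell by 1.34 (SE 0.24, adjusted p = 0.0422).

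The genes that surround NPPA and NPPB did not pass the test in any step, with 5 of 6 tested in each. CLCN6, whose exons overlap those of NPPA, stayed between 17.0 and 31.6 TPM over all 15 libraries, whereas NPPA ran from 0.108 to 575 TPM. Its log2 fold changes were −0.20 (SE 0.19), 0.18 (SE 0.25) and 0.09 (SE 0.28) in the last 3 steps. PLOD1, a collagen-modifying enzyme and the one with the highest mean over the 15 libraries, had changes of 0.41, −0.19 and 0.96 with adjusted p-values of 0.307, 0.826 and 0.332 by edgeR.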

How the data were processed

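Bulk RNA-seq of H1 cells on 5 days, with 3 replicates each, was analysed. The authors aligned paired-end reads of ribosome-depleted total RNA to GRCh38 (Ensembl annotation) with STAR 2.5.2b, counted with featureCounts 1.5.1 and removed ribosomal RNA and mitochondrial genes. They deposited raw counts per gene and TPM values, which the authors computed from these counts with a gene length not given in the sources used here. For each library the deposited sample table adds a score of RNA integrity, the fraction of reads that mapped uniquely, and its sequencing lane. A short unnamed gene took 20.0% of TPM in a day 0 library and 17.0% in day 9 plate 2, against 0.370% and 0.294% of counts, which lowers the TPM of other genes there and leaves the tests of counts untouched.

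Counts were compared in R 4.3.3 with edgeR 4.0.16 (filterByExpr, at least 10 counts and 15 in total, TMM, robust quasi-likelihood), with the 6 libraries of successive days in each fit, two-sided, adjusted over all genes tested, threshold 0.05. A day factor over all 15 libraries gave the F-test. Methods were tested on simulated data. Alternatives were DESeq2 1.42.0, upper-quartile normalization, no filter, all libraries in one fit, limma 3.58.1 on log2 TPM, lane or plate blocks, and each library left out. Counting intervals are exact at 95%, cover counting error only and used scipy 1.17.1. The libraries are called biological replicates by the study. Log2 CPM used a prior count of 2.

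Symbols and positions come from GENCODE v44, in which 46872 of 48777 identifiers were found, and 85 of 86 list genes had a value. The members and lists were chosen with earlier results of these data known. All members are described. From each list at most 4 genes a comparison were named, those past the threshold with the largest change, and otherwise the gene with the highest mean. Not every gene the rule allows is named, and values beside a member were chosen after seeing them. Single-cell data were not analysed here.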

Additional observations from a re-analysis of the deposited data

How the results depend on the processing

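The count of members called was 5 from day 4 to day 9 (4 to 6 over the alternatives) and 6 over the days (6 under every one). From day 9 to day 11 it was 0, but 2 with DESeq2, 1 with no filter, 1 with all 15 libraries in one fit, 1 with the lane as a block and 0 to 1 with a library left out. From day 11 to day 20 it was 0, but 1 with DESeq2, 1 with no filter, 1 with all 15 libraries, and 0 to 1 with a library left out. The cause was not tested. With the plate number as a replicate block, 3 members passed from day 9 to day 11 (NPPA 4.06, NPR1 2.11 and NPPB, which turned to −0.78) and none from day 11 to day 20. Over all genes the plate block moved the calls from 495 to 1971 in the first of these steps and from 332 to 3 in the second. Same-plate libraries correlated at r = 0.14 and 0.36 across genes from day 9 to day 11 and at −0.18, 0.00 and 0.38 from day 11 to day 20, and no label calls a plate a shared batch, so the numbers were not taken to pair the libraries. The block could not be fitted for the other comparisons.

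Directions that turned belonged to values that passed no test, apart from NPPB under the plate block. With a library left out, NPR1 from day 0 to day 4 ran from −0.95 to 0.53. From day 9 to day 11, NPPB ran from −0.55 to 2.09, and NPPC from −0.67 to 0.51, with −0.083 and −0.14 by limma on log2(TPM + 1) and log2(TPM + 0.1), −0.15 with the lane block and −0.82 with the plate block. From day 11 to day 20, NPPA ran from −0.93 to 3.09, with 0.94 and 0.97 by limma, 2.04 with the lane block and 2.10 with the plate block. In the same step NPPB ran from −2.32 to 1.64, with 0.037 and 0.94 under the 2 blocks. NPPC ran from −1.88 to 0.83, with −0.17 by DESeq2, −0.19 with no filter, −0.23 and −0.43 by limma and −0.86 with the lane block.

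Over all genes, the 495 calls from day 9 to day 11 became 0 without day 9 plate 2, and the 332 calls from day 11 to day 20 became 0, 1 and 0 without each library of day 11. A left-out library leaves its day with 2, and the spread is pooled with the other day. NPPA, NPPB and NPR3 had at most 8 counts in any library of days 0 and 4, and the counting interval of the ratio of day 4 to day 0 was 0.204 to 1.48 for NPPA, 0.135 to 1.70 for NPPB and 0.158 to 16.5 for NPR3. Differences within these bounds were not resolved by the counts. The bounds cover counting error only and leave out the spread between libraries, so they are no limit of detection.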
